A study of Mus musculus with 2 samples.

Results

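Cadherins and connexins are the membrane proteins of 2 kinds of cell junction, and 41 genes that encode them were followed in RNA from the adrenal glands of newborn mice. The members were the protein-coding genes with a symbol made of Cdh or Gja, Gjb, Gjc, Gjd or Gje and a number, leaving out Cdh5 and Cdh19. They comprised 21 cadherins and 20 connexins of 21474 protein-coding genes in the tables. Of the 21 cadherins, 16 are classical cadherins of type I or type II and 5 (Cdh13, Cdh16, Cdh17, Cdh23 and Cdh26) are not, so the set is wider than classical cadherins. The samples were 2 total RNA libraries from mice of strain B6NCrl at postnatal day 0, with no treatment or altered allele named in the labels, each made from 10 ng of RNA of the 2 adrenals of 1 pup. Spike-in RNA was added. The labels number both pups under the same pregnant animal, so they may be littermates, and sex was not collected. There was 1 group and no contrast between conditions, and any difference between the pups rests on 1 library each, without a replicate check or a p-value.

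Classical cadherins bind the same cadherin on a neighbouring cell in the presence of calcium, and their tails hold beta-catenin and p120 catenin, which tie the junction to actin through alpha-catenin. Connexins assemble into channels that dock with those of the next cell to form gap junctions, through which ions and small messengers pass. In the adrenal gland, gap junctions of the Gja1 product connexin 43 (Cx43) link steroid-making cells of the cortex, and coupling between chromaffin cells of the medulla involves the Gjd2 product Cx36.

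The libraries held 41504343 and 40799478 estimated counts over genes in pup 1 and pup 2. Marker genes of the labelled tissue were present: all 6 steroidogenic genes examined (summed TPM 5536 in pup 1 and 14488 in pup 2) and all 6 chromaffin genes (1451 and 3495) reached TPM 1 in both pups. TPM is a transcript level corrected for length and library depth. The libraries were not matched in their makeup. Summed TPM was higher in pup 1 for sympathetic neuron (1093 and 347), stomach (140 and 5.88) and squamous epithelium (17.1 and 8.11) lists, and higher in pup 2 for kidney (2.32 and 10.4) and skeletal muscle (56.0 and 227) lists. Such lists are given again beside members, mostly those they move with. This placing was made with the values known, so a shared direction is not a test of where a member is expressed.

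**Figure D1:**
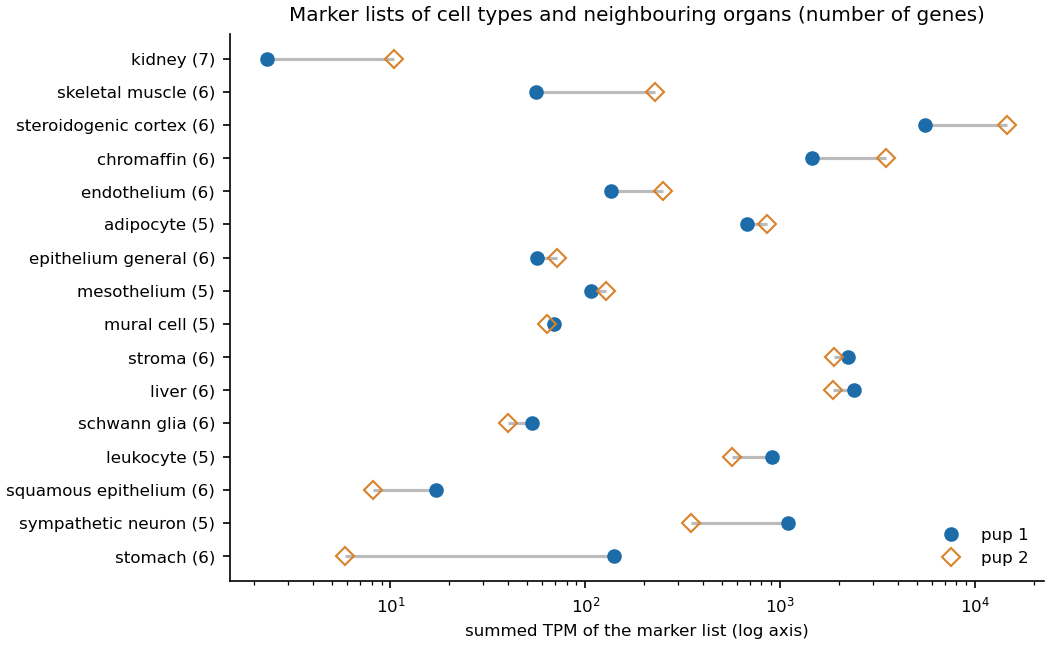
Summed TPM (log axis) of 16 marker lists in pup 1 (filled circles) and pup 2 (open diamonds), with the number of genes of each list in brackets and lists ordered by the ratio of the sums. Kidney markers stood at 2.32 and 10.4 and stomach markers at 140 and 5.88, the widest gaps in each direction.

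A few members held most of the family's RNA. Cdh11 and Cdh2 together made up 81.2% of the summed TPM of the 21 cadherins in pup 1 and 70.4% in pup 2. Gja1 and Gjc1 made up 72.3% and 84.0% of that of the 20 connexins. Of the 41 members, 15 reached TPM 1 in both pups (36.6%), compared with 60.5% of all protein-coding genes. These were 7 cadherins and 8 connexins. Another 5 members reached it in pup 1 alone, 3 in pup 2 alone and 18 in neither. The summed TPM of the cadherins was 121 and 101, and that of the connexins 92.2 and 170. Fewer cells of a type and less RNA per cell cannot be told apart in these bulk samples.

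**Figure D2:**
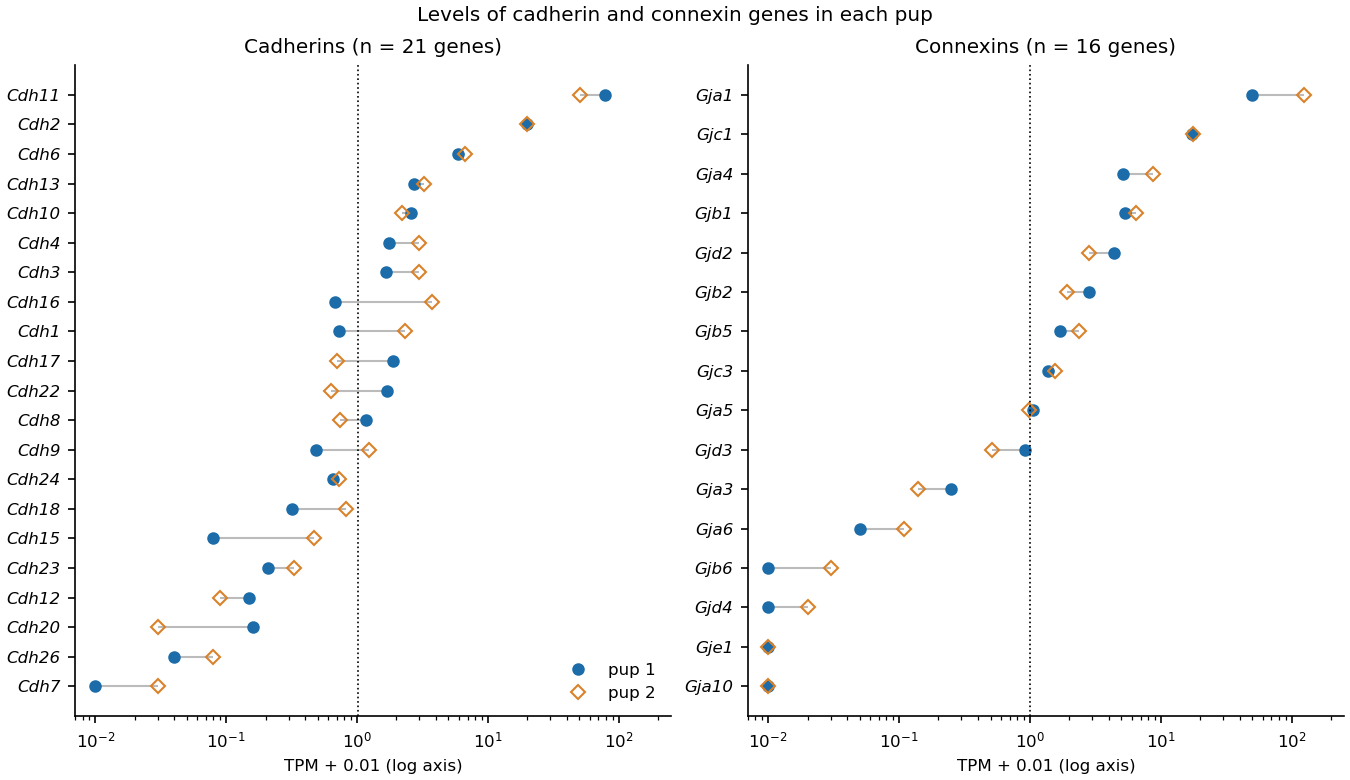
TPM plus 0.01 (log axis) of 21 cadherins and 16 connexins in pup 1 (filled circles) and pup 2 (open diamonds), with TPM 1 as a dotted line. Cdh11 (78.5 and 50.9 TPM) and Gja1 (49.3 and 125 TPM) stand apart from the other members of their families, and 2 connexins lie at 0 in both pups.

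Of the 5 type I cadherins, Cdh2 was the most abundant. Cdh2 encodes N-cadherin, the cadherin of neurons and many mesenchymal cells (ENSMUSG00000024304.10, chromosome 18, 16588877 to 16809246, minus strand, mm10). It stood at 19.9 TPM in both pups, with overlapping quantification intervals (19.0 to 20.4 and 18.8 to 20.3 TPM). Cdh4, which encodes R-cadherin of retina and brain, had 1.75 and 2.98 TPM. Cdh3, the P-cadherin gene of basal epithelia and placenta, had 1.67 and 2.95 TPM. Cdh1 encodes E-cadherin, the cadherin of epithelia (ENSMUSG00000000303.8, chromosome 8, 106603351 to 106670246), and was at 0.72 TPM in pup 1 and at 2.32 in pup 2. Cdh2 was thus above Cdh1 in both pups, and the levels of Cdh3 and Cdh4 could not be put in order, since they differed by less than the gap between the pups. Cdh15, the M-cadherin gene of muscle precursors, had 0.07 and 0.46 TPM (8 and 41 counts).

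Among 11 type II cadherins, Cdh11 led the whole cadherin family. Cdh11 is known from mesenchymal and bone-forming cells (ENSMUSG00000031673.5, chromosome 8, 102632095 to 102785642, minus strand) and reached 78.5 TPM in pup 1 and 50.9 in pup 2, or 64.7 ± 19.5 TPM (SD, n = 2). It ranked 1390 and 2672 among 21474 protein-coding genes. Cdh6, known as K-cadherin from the developing kidney, was the third cadherin of the gland with 5.93 and 6.66 TPM. Cdh10, a cadherin of brain, had 2.57 and 2.19 TPM. The order Cdh11, Cdh2, Cdh6 was the same in both pups, with no overlap between the ranges of neighbouring genes. Cdh22 (1.70 and 0.62 TPM) and Cdh8 (1.17 and 0.73 TPM), both known from the nervous system, passed TPM 1 in pup 1 alone. Cdh9, another cadherin of neurons, had 0.48 and 1.22 TPM. The other 5 genes of type II (Cdh7, Cdh12, Cdh18, Cdh20 and Cdh24) ran from 0 to 0.81 TPM, and Cdh7 had 0 and 2 counts.

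The cadherins outside the classical types were low. Cdh13 encodes T-cadherin, which has a lipid anchor in place of the tail that binds catenins, and stood at 2.71 and 3.22 TPM. Cdh16, the cadherin of kidney tubules, was at 0.67 TPM in pup 1 and at 3.75 in pup 2. Cdh17, known from intestinal epithelium, had 1.86 and 0.69 TPM. Of these 3 genes, Cdh13 alone passed TPM 1 in both pups. Cdh23, a tip-link cadherin of hair cells, had 0.20 and 0.32 TPM, and Cdh26 had 3 and 6 counts.

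Cx43 was the leading connexin of the gland by its RNA. Gja1 (ENSMUSG00000050953.9, chromosome 10, 56377330 to 56402513) reached 49.3 TPM in pup 1 and 125 in pup 2, or 87.0 ± 53.3 TPM (SD, n = 2). It ranked 2144 and 1133 among protein-coding genes, and its share of the summed connexin TPM was 53.5% and 73.6%. The other members of the alpha group were far lower. Gja4 encodes Cx37 of vessel walls and oocytes and had 5.09 and 8.66 TPM, and Gja5, the Cx40 gene of arteries and atria, had 1.05 and 0.98 TPM. The lens connexin gene Gja3, the testis gene Gja6 and Gja10 lay between 0 and 0.24 TPM, and Gja10 had no count in either pup.

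The window of 250 bases before the Gja1 start given by RefSeq is shown because this gene supplied most connexin RNA in both pups (GRCm38.p6, plus strand, chr10:56377050-56377299). Capitals mark a match to TGANTCA, the AP-1 motif, which begins 19 bases before that start and matches this pattern on both strands.
Gja1: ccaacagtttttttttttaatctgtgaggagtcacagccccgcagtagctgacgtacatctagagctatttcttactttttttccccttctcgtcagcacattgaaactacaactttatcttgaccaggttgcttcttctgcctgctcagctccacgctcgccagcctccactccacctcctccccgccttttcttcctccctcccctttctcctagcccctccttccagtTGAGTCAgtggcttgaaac
The RefSeq start lies 30 bases before that of the annotated transcript Gja1-201. Windows were searched on both strands for TGANTCA, for GGGCGG (GC box), for CAGGTG (an E-box) and for AAGGTCA (the motif of SF-1, the Nr5a1 product). Of 32851 windows of the same length before all RefSeq starts, 6.75% held TGANTCA, 32.7% GGGCGG, 17.2% CAGGTG and 4.08% AAGGTCA. Among 31 windows of the 25 members with an entry, 1, 10, 6 and 3 held them, in the same order. The single AP-1 match was that of Gja1.

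Gjc1 was the second connexin in both pups. It encodes Cx45 of smooth muscle, heart and other tissues (ENSMUSG00000034520.10, chromosome 11, 102799579 to 102819700, minus strand) and stood at 17.3 and 17.7 TPM, or 17.5 ± 0.283 TPM (SD, n = 2). Gjc3 of the same group, the Cx29 gene of Schwann cells and oligodendrocytes, was low at 1.36 and 1.55 TPM. The level of Gjc1 differed between the pups by less than its quantification interval (15.6 to 19.0 and 15.8 to 19.6 TPM).

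In the beta group, Gjb1 was the most abundant. It encodes Cx32 of hepatocytes and Schwann cells (ENSMUSG00000047797.10, chromosome X, 101376378 to 101385629) and had 5.36 and 6.50 TPM. Gjb2, which encodes Cx26 of liver and the cochlea, had 2.80 and 1.90 TPM. Gjb5 had 1.68 and 2.37 TPM, and its range overlapped that of Gjb2. Gjb6 had 0 counts in pup 1 and 1 in pup 2. All 6 liver markers examined, led by Trf and Apoa1, were present in both libraries, with a summed TPM of 2389 in pup 1 and 1853 in pup 2, and no marker of that list was at 0. The part of liver RNA in the level of Gjb1 and Gjb2 was not tested.

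The delta connexin genes were led by Gjd2. Gjd2 encodes Cx36 of neurons and endocrine cells (chromosome 2, 114009601 to 114013619, minus strand) and was at 4.40 TPM in pup 1 and at 2.83 in pup 2. Gjd3 had 0.91 and 0.50 TPM and Gjd4 had 0 and 1 counts. Gje1 of the epsilon group had no count in either pup. A count of 0 in a library is compatible with up to 3 counts.

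Several members lie next to each other in the genome, and their levels are given side by side. Cdh3 and Cdh1 lie within 159 kb on chromosome 8, which carries 7 of the 21 cadherins. Cdh3 had 1.67 and 2.95 TPM and Cdh1 0.72 and 2.32 TPM. On chromosome 14, Gja3, Gjb2 and Gjb6 lie within 99.2 kb, and of these Gjb2 alone was above TPM 1. The leaders Cdh11 and Gja1 have no other member within 100 kb.

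Annotated transcripts were compared for the 3 highest genes of each family. Cdh11, Cdh6, Gja1 and Gja4 had 1 annotated transcript each. Of the 3 Cdh2 transcripts, Cdh2-202 held 54.0% ± 0.262 of the TPM (SD, n = 2) and Cdh2-201 40.9% ± 0.523. Their first exons begin 139 kb apart. By TPM, more Cdh2 RNA was assigned to the downstream start, at 10.8 and 10.7 TPM against 8.22 and 8.04 TPM. Expected counts were nearly equal, at 1606 and 1291 for Cdh2-202 and 1573 and 1250 for Cdh2-201. The gap in TPM thus rests largely on the lengths used, 3785 and 4843 bases. The intervals of the 2 transcripts did not overlap in either pup (9.62 to 11.7 against 7.33 to 8.93 TPM in pup 1). Of 5 Gjc1 transcripts, the coding transcript Gjc1-201 held 61.2% ± 2.72, and Gjc1-204, a noncoding transcript of 247 bases, held 17.5% ± 0.0212 with 18.06 and 15.03 counts. The share of so short a transcript rests on few reads. Levels also rest on the annotated lengths: the Cdh6 transcript measures 2632 bases in the deposited tables and 8167 in GENCODE M21, and that of Cdh11 4216 and 5647.

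**Figure D3:**
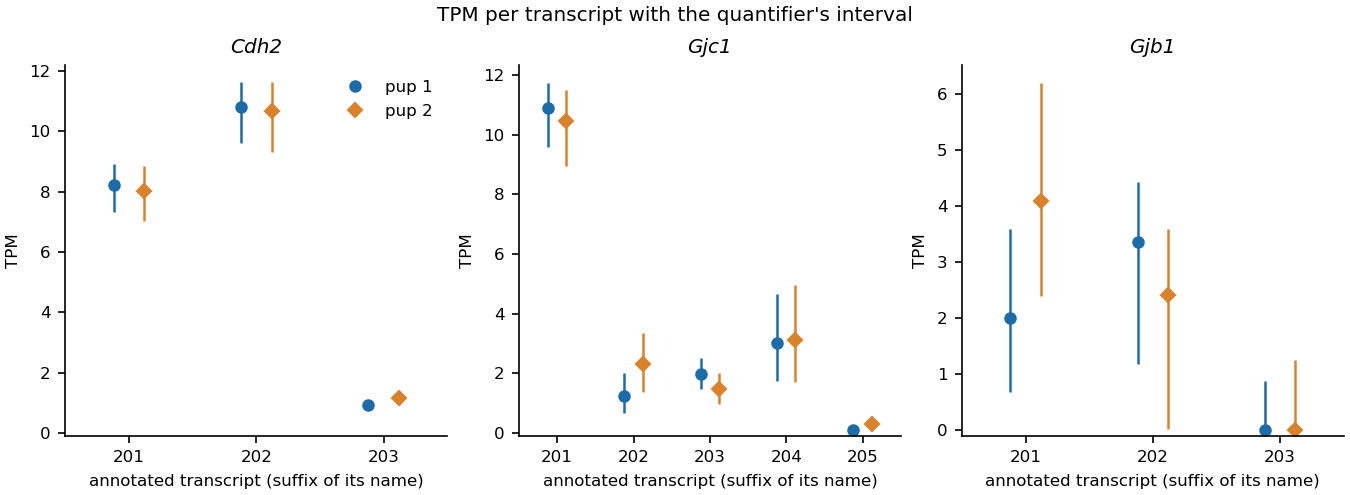
TPM per annotated transcript of Cdh2, Gjc1 and Gjb1 in pup 1 (circles) and pup 2 (diamonds), with vertical lines for the quantifier's interval. Cdh2-202 stands above Cdh2-201 in both pups, whereas the intervals of Gjb1-201 and Gjb1-202 overlap.

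Gjb1 was examined after its values were seen, because its annotated transcripts differ in the first exon and the coding part is shared. Gjb1-202 begins 7790 bases before the coding start, Gjb1-201 begins 6895 bases before it and Gjb1-203 begins 432 bases before it. A start close to the coding exon is known from nerve. The windows of 250 bases before the matching RefSeq starts are shown because Gjb1 RNA was assigned unequally to these starts (GRCm38.p6, plus strand). They are chrX:101376126-101376375, chrX:101376985-101377234 and chrX:101383482-101383731, and capitals mark GGGCGG and CAGGTG.
Gjb1-202: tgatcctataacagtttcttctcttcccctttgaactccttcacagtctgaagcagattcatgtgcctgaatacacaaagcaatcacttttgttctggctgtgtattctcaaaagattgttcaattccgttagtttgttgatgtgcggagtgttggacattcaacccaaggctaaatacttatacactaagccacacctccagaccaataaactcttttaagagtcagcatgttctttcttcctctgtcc
Gjb1-201: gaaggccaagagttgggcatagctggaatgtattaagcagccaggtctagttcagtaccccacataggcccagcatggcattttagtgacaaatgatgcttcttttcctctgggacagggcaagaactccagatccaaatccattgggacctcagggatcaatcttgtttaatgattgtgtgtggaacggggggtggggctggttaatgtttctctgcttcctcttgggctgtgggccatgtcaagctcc
Gjb1-203: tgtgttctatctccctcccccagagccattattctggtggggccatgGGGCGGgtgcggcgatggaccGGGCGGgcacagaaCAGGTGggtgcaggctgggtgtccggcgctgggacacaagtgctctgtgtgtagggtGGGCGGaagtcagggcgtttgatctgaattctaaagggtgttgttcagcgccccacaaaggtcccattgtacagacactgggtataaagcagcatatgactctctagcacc
The RefSeq starts lie 2, 38 and 4 bases from those of the transcripts. The window of Gjb1-203 held 3 matches to GGGCGG and 1 to CAGGTG and had a GC content of 58.4%, against 40.4% and 50% for the windows of Gjb1-202 and Gjb1-201, which held no match to any of the motifs. A further RefSeq start of Gjb1 lies 1618 bases from the nearest transcript start, that of Gjb1-203. Its window is not shown and held 1 match to AAGGTCA, the SF-1 motif.

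By expected counts, Gjb1 RNA was assigned to the distant starts. Gjb1-203 had an expected count of 0 in both pups, with intervals up to 0.877 TPM in pup 1 and 1.25 TPM in pup 2. This 0 is an uncertain estimate, with posterior SDs of 16.9 and 18.7 counts. Posterior means gave Gjb1-203 shares of 5.61% and 7.05%. Gjb1-202 held 62.7% of Gjb1 TPM in pup 1 and 37.2% in pup 2, and Gjb1-201 held 37.3% and 62.8%. This exchange was within the precision of the assignment. In pup 1 the intervals ran from 1.19 to 4.42 TPM for Gjb1-202 and from 0.69 to 3.59 TPM for Gjb1-201, and the first exons that tell them apart measure 35 and 87 bases.

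The cytoplasmic and membrane partners of cadherins were nearly all present. Of 12 genes for catenins, linkers and nectins, 11 reached TPM 1 in both pups, and Ctnna3 (0.14 and 0.24 TPM) did not in either. Ctnnb1, the beta-catenin gene, stood at 138 and 178 TPM, above Cdh11 in both pups. Ctnna1, the alpha-catenin gene of epithelia and most other tissues, had 37.0 and 60.5 TPM, the afadin gene Afdn 44.3 and 52.2 TPM, and Nectin2, an adhesion receptor that binds afadin, 34.6 and 47.8 TPM. The 5 repressors of Cdh1 examined, Zeb1 (18.4 and 20.6 TPM), Zeb2 (12.4 and 20.8), Snai1 (12.7 and 15.1), Snai2 (10.3 and 11.1) and Twist1 (8.30 and 7.12), all stood above Cdh1 in both pups. None of the 5 lay over 2-fold apart between the pups by the ratio of scaled counts (pup 2 over pup 1), and their median log2 ratio was -0.27.

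Other junction families were present at mixed levels. Of 12 tight junction genes, 9 reached TPM 1 in both pups, led by Cldn1 (66.3 and 37.3 TPM), F11r (57.6 and 42.6), Cldn11 (62.5 and 31.7) and the endothelial claudin gene Cldn5 (21.9 and 43.6), and Tjp3 (0.40 and 0.34) was under 1 in both. By the ratio of TMM-scaled counts 2 of the 12 were over 2-fold higher in pup 1 and 1 in pup 2, where all genes with as many counts gave 9.76% and 6.03%. Of 8 desmosome genes, 6 reached TPM 1 in both pups. Perp (9.93 and 4.45 TPM) and Pkp4 (5.52 and 6.08) were the highest of these, followed by Pkp3 (2.15 and 1.23) and Ppl (1.39 and 1.49). Dsp, which encodes the desmosomal anchor desmoplakin, had 0.79 and 0.45 TPM and Pkp1 0.08 and 0.07. On the same scale 3 of the 8 desmosome genes were over 2-fold higher in pup 1, none in pup 2, beside the same shares over all genes, and the median log2 ratio was -0.67. Of the squamous epithelium markers with enough counts, 4 of 5 were also over 2-fold higher in pup 1 (median -1.76, summed TPM 17.1 and 8.11, with Dsg3 at 0 in pup 2), and their part in the desmosome ratios was not tested. Panx1, which encodes a channel protein of the separate pannexin family, had 19.8 and 13.0 TPM and was below Gja1 in both pups, while Panx2 (0.63 and 0.44) and Panx3 (0 and 0.05) were under 1.

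**Figure D4:**
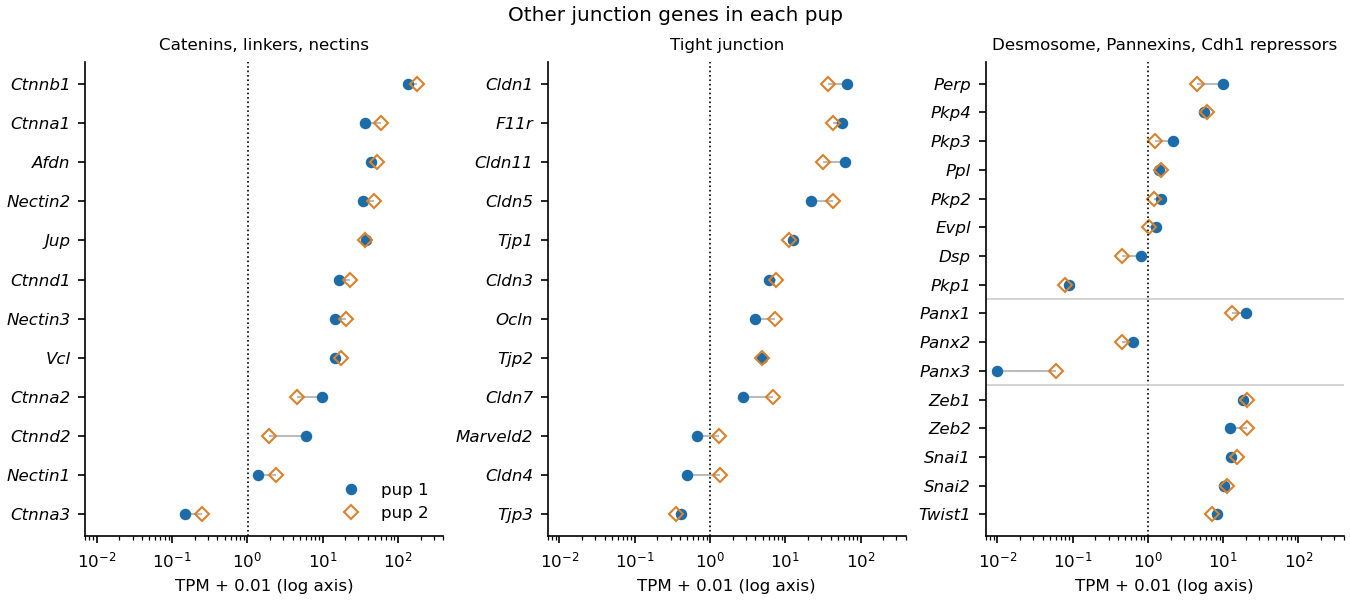
TPM plus 0.01 (log axis) in pup 1 (filled circles) and pup 2 (open diamonds) for partners of cadherins, tight junction genes, and desmosome, pannexin and Cdh1 repressor genes, with TPM 1 as a dotted line. Ctnnb1 is the highest at 138 and 178 TPM, and Dsp, Pkp1, Panx2 and Panx3 lie left of the line in both pups.

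The pups were then compared gene by gene. Ratios are of pup 2 over pup 1, from counts scaled by the TMM method of edgeR, and are given where the counts of a gene averaged 10 or more. That held for 33 of the 41 members (19 cadherins and 14 connexins). Of these 33 members, 13 (39.4%) differed by more than 2-fold, of which 10 were higher in pup 1 and 3 (Cdh1, Cdh15 and Cdh16) in pup 2. Over all 18670 genes with as many counts the share was 15.8%, made up of 9.76% towards pup 1 and 6.03% towards pup 2. Over the protein-coding genes alone it was 13.8%, made up of 9.14% and 4.71%. With a mean count of at least 50 it was 8 of 24 members (33.3%) and 10.7% of genes. The median log2 ratio was -0.22 for cadherins and -0.32 for connexins, against 0.00202 over all genes. The split depends on the scale and on the added 0.5. By TPM plus 0.5 there were 3 members over 2-fold apart, all higher in pup 2. They were Cdh16 (log2 ratio 1.86), Gja1 (1.33) and Cdh1 (1.21), while Cdh15 lay at 0.75. Without the 0.5, further members of low TPM pass 2-fold, such as Cdh17 (2.70-fold) and Cdh22 (2.74-fold) towards pup 1 and Cdh9 (2.54-fold) towards pup 2. By spike-in scaling 29 members were over 2-fold apart, all higher in pup 2, where the median log2 ratio of all 18670 genes was itself 2.57. The share of all genes past 2-fold was not computed on either scale. Over all genes the median gap between TPM and count ratios was 0.37 (log2, TPM higher), and spike-in scaling moved all ratios up by 2.57, so that any ratio below 0 by less than this shift, of members and of marker or junction genes alike, turns its sign under it. Directions are given relative to the bulk of genes on the TMM scale.

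**Figure D5:**
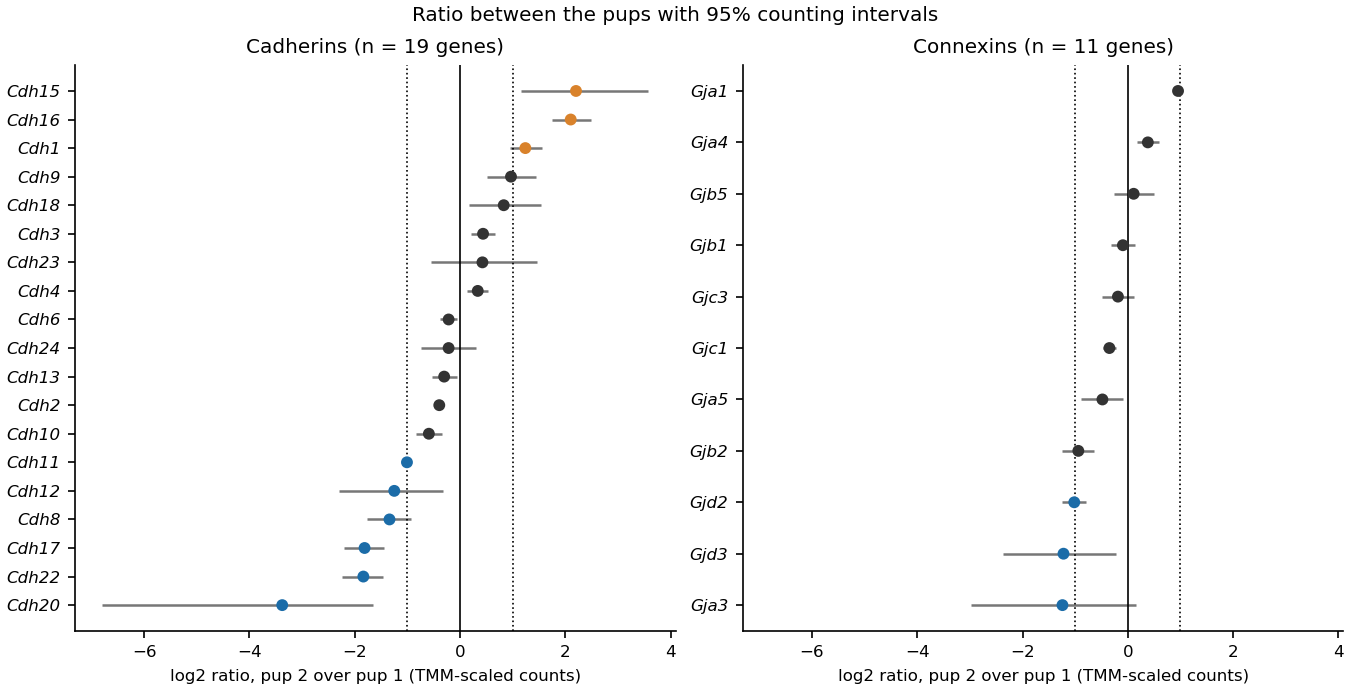
Log2 ratio of pup 2 over pup 1 from TMM-scaled counts for 19 cadherins and 11 connexins, with lines for the exact binomial 95% counting interval and dotted lines at 2-fold; blue points are over 2-fold higher in pup 1 and orange points in pup 2. On this scale 9 of the members shown lie beyond 2-fold towards pup 1 and 3 towards pup 2, while spike-in scaling moves all points up by 2.57.

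The leading genes of the families lay in opposite directions on the TMM scale. Gja1 had 5984 and 12289 counts and a log2 ratio of 0.95 (95% counting interval 0.91 to 1.00), just inside 2-fold, and its TPM was 2.53-fold higher in pup 2. All 6 steroidogenic markers also had ratios above 0, with a median of 1.15 and a summed TPM of 5536 and 14488. This direction is not particular to them, since chromaffin (median 0.80), endothelial (0.78) and adipocyte (1.19) lists leaned to pup 2 as well. Cdh11 had 13035 and 6873 counts and a log2 ratio of -1.01 (-1.05 to -0.97), just outside 2-fold, which became -0.99 with DESeq2 size factors, within 2-fold, and turned to 1.56 under spike-in scaling, and its TPM was 1.54-fold higher in pup 1. All 6 stroma markers had ratios below 0, with a median of -0.84 and a summed TPM of 2224 and 1881. Liver (median -0.75), glial (-0.75), leukocyte (-0.61) and mural cell (-0.60) lists leaned to pup 1 as well. No marker of the steroidogenic or the stroma list was at 0, and the part of cell makeup in these ratios was not tested.

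Some members known from neurons were higher in pup 1 on the TMM scale, and those named here with a spike-in value in brackets turned under it. Cdh22 (247 and 73 counts) had a log2 ratio of -1.84 (0.73), Cdh8 (163 and 68 counts) -1.34 (1.23) and Gjd2 (493 and 258 counts) -1.02 (1.55). Cdh20, known from neural tissue, had 24 and 2 counts, a log2 ratio of -3.38, and its interval ran from -6.80 to -1.66. In the same direction, all 5 sympathetic neuron markers were over 2-fold higher in pup 1 (median log2 ratio -2.02, summed TPM 1093 and 347), and all 6 glial markers had ratios below 0 (median -0.75, summed TPM 53.3 and 40.3). The neuronal catenin genes Ctnna2 (9.90 and 4.63 TPM, log2 ratio -1.50) and Ctnnd2 (5.96 and 1.96 TPM, -1.99) did the same, the only genes of the 12 partners over 2-fold apart. Other members known from these tissues lay within 2-fold, in both directions. Cdh9 had a log2 ratio of 0.97 and Cdh4, of retina and brain, one of 0.34 (interval 0.14 to 0.53), both towards pup 2. Cdh10 had one of -0.59 and Gjc3 one of -0.19, both below 0. The type II genes given no tissue here were split as well, with Cdh18 (30 and 57 counts) at 0.83, Cdh12 at -1.25 and Cdh24 at -0.22. Chromaffin markers, of cells in which Gjd2 is also known, lay the other way from Gjd2, with 5 of 6 ratios above 0, 3 of them over 2-fold higher in pup 2, and a median of 0.80. The part of nerve RNA in these ratios was not tested.

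Cadherins of epithelia and muscle were split between the pups. Cdh16 had 78 and 357 counts (log2 ratio 2.10, interval 1.75 to 2.48) and Cdh1 125 and 314 counts (1.24, interval 0.94 to 1.55). Kidney markers were higher in pup 2 for Pax2 (34 and 376 counts), Lhx1 (6 and 318) and Aqp2 (49 and 151), while Umod (0 and 3), Nphs1 (2 and 5) and Slc12a3 (9 and 5) were near 0 in both, and Miox (36 and 18) was higher in pup 1. Of 6 general epithelial markers 3 had ratios above 0 and 3 below, with a median of 0.18 and a summed TPM of 56.3 and 71.6, none of them at 0. Epcam (1.31) and Cldn4 (1.06) were the 2 over 2-fold higher in pup 2. Cdh17 had 253 and 76 counts and a log2 ratio of -1.81, or 0.76 under spike-in scaling. No list of intestinal markers was examined. All 5 stomach markers with enough counts were over 2-fold higher in pup 1, with Gkn1 and Muc5ac at 0 in pup 2. Cdh15 (8 and 41 counts) had a log2 ratio of 2.20 (1.16 to 3.58), and all 5 skeletal muscle markers with enough counts were over 2-fold higher in pup 2, with Myh1 at 0 in pup 1. The part of RNA from neighbouring organs in these ratios was not tested.

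Others over 2-fold apart were Cdh12 (32 and 14 counts), Gjd3 (27 and 12) and Gja3 (14 and 6), all higher in pup 1 on the TMM scale and all turned under spike-in scaling. The interval of Gja3 (-2.97 to 0.16) includes no difference. Just within 2-fold lay Cdh9 (0.97), Gja1 (0.95) and Gjb2 (-0.94), beside Cdh11 and Gjd2 just beyond it. Cdh2 (3299 and 2662 counts) had a log2 ratio of -0.39 and Gjc1 (1094 and 910 counts) one of -0.35, although the TPM of either gene was nearly level. The less abundant type I genes Cdh3 (0.44) and Cdh4 (0.34) leaned to pup 2. Also within 2-fold, the vessel connexin gene Gja4 had a log2 ratio of 0.38 (0.17 to 0.59) and Gja5 one of -0.48 (-0.88 to -0.09). Of 6 endothelial markers 5 had ratios above 0, with a summed TPM of 135 and 250, none of them at 0, and their part in the ratio of Gja4 was not tested. Cdh5, the exception among these markers, had a log2 ratio of -0.45 (22.1 and 21.2 TPM). Gjb1 (-0.33 to 0.14), Gjb5 (-0.27 to 0.49) and Gjc3 (-0.49 to 0.12) had intervals on both sides of 0, so a difference was not detectable at this depth.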

How the data were processed

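Total RNA was measured in 2 libraries of 1 group, and pup numbers come from the labels. The authors deposited gene and transcript tables per library. Their columns, per the file headers, are expected counts (fractional where reads fit several transcripts), posterior means, TPM scaled over all rows, FPKM and, for transcripts, isoform percent. The text deposited with each library names mm10 and GENCODE M4. The aligner, quantifier, versions and strand handling were not given in the sources used here.

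Members, lists and tests were chosen with earlier results of these data known. Every member could be named. The values of 4 connexins are not reported here, though counts, sums and medians over members include them. Of each list of junction genes the 4 highest and those under TPM 1 in both pups were named, and of each of 16 marker lists the sums, the genes at 0 and up to 2 of the highest; other marker genes and Ctnna2 and Ctnnd2 were named after their values were seen, and the motifs were chosen after the levels were known. Symbols and coordinates were taken from GENCODE M21, which uses that build (42462 of 43346 Ensembl genes), and promoter windows from RefSeq on GRCm38.p6 (25 of 41 members).

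Spike-ins (97 rows; 0.0138% and 0.00250% of counts) and 26248 numbered rows (2.65e-05% and 9.59e-05%) were left out of library sizes. Counts were rounded. Ratios used TMM (edgeR 4.0.16, R 4.3.3) and a pseudocount of 0.5. Intervals are exact binomial 95% intervals and, like the limit of 3 counts for a 0, cover counting error only, since reads are not independent molecules. No test was run between the pups. Alternatives were DESeq2 1.42.0 size factors, spike-in scaling, TPM ratios, other minimums, posterior means, FPKM and leaving out each pup. The ratio script was tested on simulated data. Other steps used python 3.11.15, pandas 2.3.3 and scipy 1.17.1.

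Counts were not whole for 2 of the 41 members (Cdh11 and Cdh24). Exons of 5 members (Cdh8, Cdh9, Cdh12, Gja5 and Gjd2) overlap another annotated gene, by at most 6.33% of their exon bases.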

Additional observations from a re-analysis of the deposited data

How the results depend on the processing

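The number of members at TPM 1 in both pups was 7 cadherins and 8 connexins. A minimum of TPM 0.5 gave 13 cadherins, a minimum of TPM 2 gave 5 connexins, and any count in both pups gave 20 cadherins and 16 connexins. By each pup alone there were 10 cadherins in either pup and 8 to 10 connexins. Of the 13 members over 2-fold apart, 8 had a mean count of at least 50 (33.3% of 24 members, against 10.7% of all genes with as many counts). Over 3-fold apart lay 6 members. Ratios of TPM plus 0.5 gave 3 (Cdh1, Cdh16 and Gja1), a number that rests partly on the added 0.5, and spike-in scaling gave 29. The median log2 ratio of cadherins became 0.16 by TPM plus 0.5 and 2.35 by spike-in counts, and that of connexins 2.25 by spike-in counts. Over all genes the median by spike-in counts was 2.57. Of the members reported over 2-fold apart, spike-in scaling turned the direction of Cdh8 (1.23), Cdh11 (1.56), Cdh12 (1.32), Cdh17 (0.76), Cdh22 (0.73), Gja3 (1.33), Gjd2 (1.55) and Gjd3 (1.35), and it also turned smaller ratios below 0, such as those of Cdh2 (2.17) and Gjc1 (2.22); spike-in counts numbered 5717 and 1022, and the cause of the gap was not tested. By DESeq2 size factors 12 members were over 2-fold apart, without Cdh11 (-0.99). The share of all genes was not computed at 3-fold, nor by DESeq2 size factors, TPM or spike-in counts, so these numbers of members have no background beside them. DESeq2 size factors, a pseudocount of 2 and posterior mean counts left the ratios of the 30 members with a reported ratio within their counting intervals. Without 1 pup the share of Cdh2-202 was 53.8% to 54.2% and that of Gjc1-201 59.3% to 63.1%. No paired analysis was possible because there is 1 group. For Gjb1-201, posterior means (an alternative chosen after seeing the data) gave shares of 39.5% and 70.2%, and for Gjb1-203 5.61% and 7.05%. Each level rests on 2 libraries, and low counts, such as the 8 of Cdh15 in pup 1, leave wide intervals.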

Other observations

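Between the count and the TPM scale, 7 of the 33 members with enough counts changed the sign of their ratio. They include Cdh6, whose TPM was 5.93 in pup 1 and 6.66 in pup 2 with a log2 count ratio of -0.22, and Cdh13, with 2.71 and 3.22 TPM and a ratio of -0.30. The 2 cadherin genes outside the set gave levels of the same order as members: Cdh5 of endothelium had 22.1 and 21.2 TPM, near Cdh2, and Cdh19 of Schwann cells had 2.75 and 3.09 TPM, near Cdh13.

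Mesothelial markers, which the report does not use, were present in both libraries, with a summed TPM of 107 and 128. Msln had 37.9 and 37.7 TPM, Upk3b 22.4 and 29.6 TPM and Wt1 15.5 and 19.8 TPM.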
